A study of Drosophila melanogaster with 28 samples.

Results

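Embryos carrying either of 2 alleles of nejire (nej), the single fly gene for the coactivator CBP/p300, were compared directly with each other. The comparison took the 4 nej3 libraries and the 4 nejEP1179 libraries, 8 of the 28 libraries of the series, and no w1118 library entered it. Differences are nej3 minus nejEP1179 on the log2 scale, so that a positive value is a higher level in nej3. The study sequenced mRNA of both mutants to ask how embryos fare in the choice of transcript 3′ ends once zygotic CBP is missing. Setting the alleles against each other asks how far they share a transcriptome.

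The first group was nej3 embryos, from a stock that carried nej3 over the X chromosome balancer FM7c in an unspecified w mutant background. The second group was nejEP1179 embryos, which carried a P-element of the EP type inserted at nej, marked with a w minigene (w+mC), also in an unspecified w background. Embryos of both groups were untreated and 14-16 h old at 25°C. They came from stocks that the study describes as kept heterozygous over GFP-marked balancers. As nej lies on X, a father has 1 copy of it and cannot be heterozygous. A son can thus be mutant through the mother alone, but a daughter has only mutant copies if her father carried the allele too. Each library was made from 20 to 30 embryos chosen by their morphology and by the absence of GFP, so a library is a pool, and a mother heterozygous for nej supplied the egg. The 4 libraries of w1118 embryos of the same age, which carry a deletion at w, are given only as a level beside both alleles. Each allele is 1 stock with its own chromosomes, and the effect of the allele cannot be told apart from that of the rest of its stock. The study describes its embryos as male and female in equal amounts. That statement covers its experiments in general, and the sex of the embryos chosen as mutant was not given.

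CBP is a large acetyltransferase that binds many transcription factors and acetylates histones at enhancers and promoters. In the fly embryo it serves Hedgehog, Dpp and Wingless signalling and is opposed at many loci by Polycomb silencing. Heat shock genes encode chaperones, are kept poised by paused RNA polymerase and are switched on by Heat shock factor (Hsf) when unfolded proteins accumulate.

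The 8 libraries held 13129082 to 21191494 counts, and the 10 most abundant genes took 9.98% to 11.4% of them. No pair of libraries of 1 allele agreed within sampling noise (chi-square per degree of freedom 6.41 to 36.8). On the first principal component (45.7% of the variance) the alleles did not mix, with nej3 libraries at −27.3, −3.93, −24.2 and −9.95 and nejEP1179 libraries at 6.46, 16.6, 24.0 and 18.4. Levels below are in CPM, in which each count is divided by a library size set across the 12 libraries of this age, and are listed by replicate 1 to 4. Of 10150 genes tested with edgeR's quasi-likelihood test, 563 differed between the alleles at an adjusted p under 0.05, which is 5.55%. Of these, 307 were higher in nej3 (3.02%) and 256 were lower (2.52%). Most differences were small: the median size was 0.47 on the log2 scale, 63 genes were at least 2-fold higher and 45 at least 2-fold lower. The libraries of one allele lay wholly above those of the other in 541 of the 563 genes, which restates the calls, since they rest on the same 8 libraries. The share over all genes tested was 13.8%. The median difference over all genes was 0.002. Among the called genes 535 were protein coding, 18 were noncoding RNAs, 3 were pseudogenes and 7 had no annotation. In these whole embryos, fewer cells of a type and less RNA per cell cannot be told apart.

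**Figure D1:**
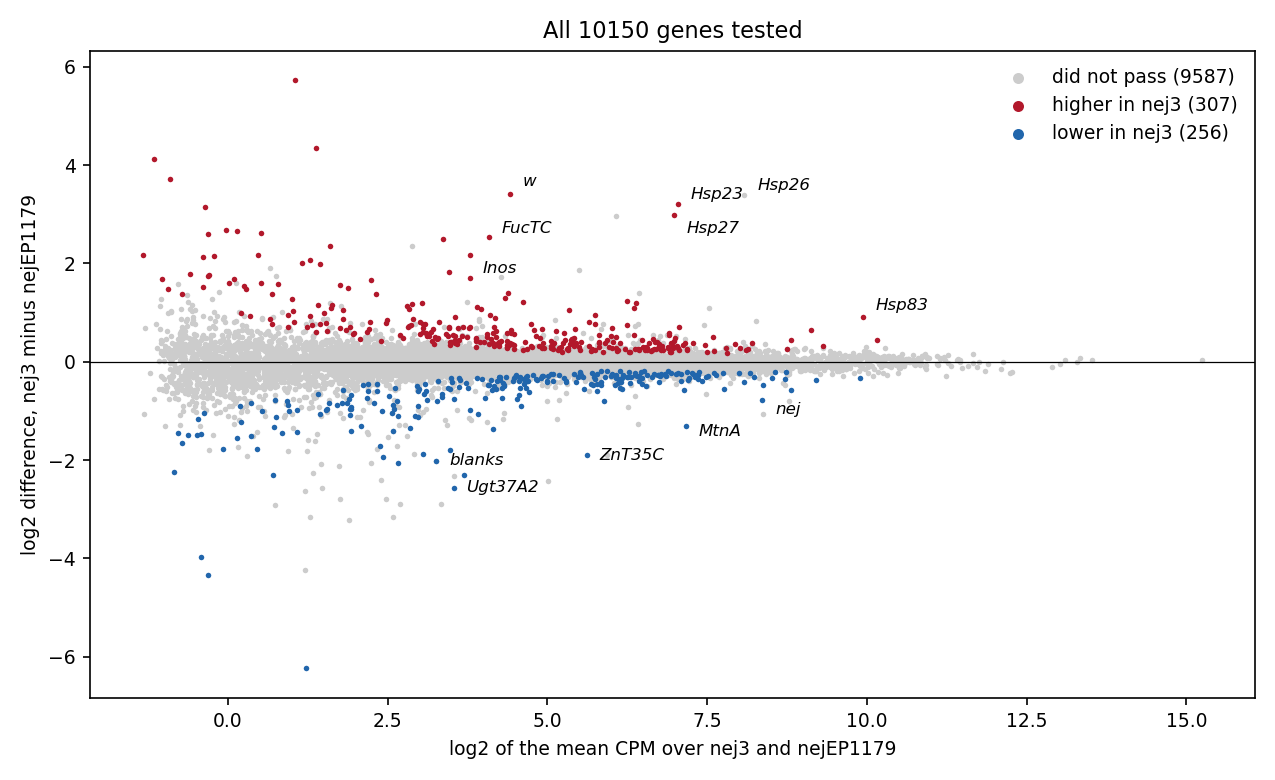
All 10150 genes tested, plotted by the log2 of their mean CPM over both alleles and by the log2 difference of nej3 minus nejEP1179, with called genes in colour and 12 genes labelled. Called genes lie on both sides of 0, 307 above and 256 below, and w (3.42), Hsp26 (3.39, not called) and Hsp23 (3.21) stand farthest up among the labelled genes.

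The mutated gene was itself expressed at different levels. Transcripts of nej (X:9665442-9687066, dm6) stood at 251, 248, 226 and 247 CPM in nej3 embryos, against 399, 368, 358 and 532 CPM in nejEP1179 embryos. Every nej3 library was below every nejEP1179 library, with nejEP1179 replicate 4 the highest. The difference was −0.77 ± 0.12 (SE, adjusted p = 0.0046), a level 1.70-fold lower in nej3. In w1118 embryos nej had 232 to 257 CPM, a range that overlapped that of nej3. The count of reads over the whole gene was thus highest in the insertion allele, and it does not report on CBP protein in either.

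The stocks differed more strongly at w, the eye pigment transporter gene that serves as the marker in fly stocks. It had 37.0, 36.8, 43.5 and 39.1 CPM in nej3 embryos, against 4.78, 3.27, 4.31 and 1.89 CPM in nejEP1179 embryos (3.42 ± 0.19, adjusted p = 1.4e-05). The w1118 libraries had 0 to 0.142 CPM. All 3 groups were thus separated, with nej3 highest, although the stock lists name a w mutant background for both alleles.

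**Figure D2:**
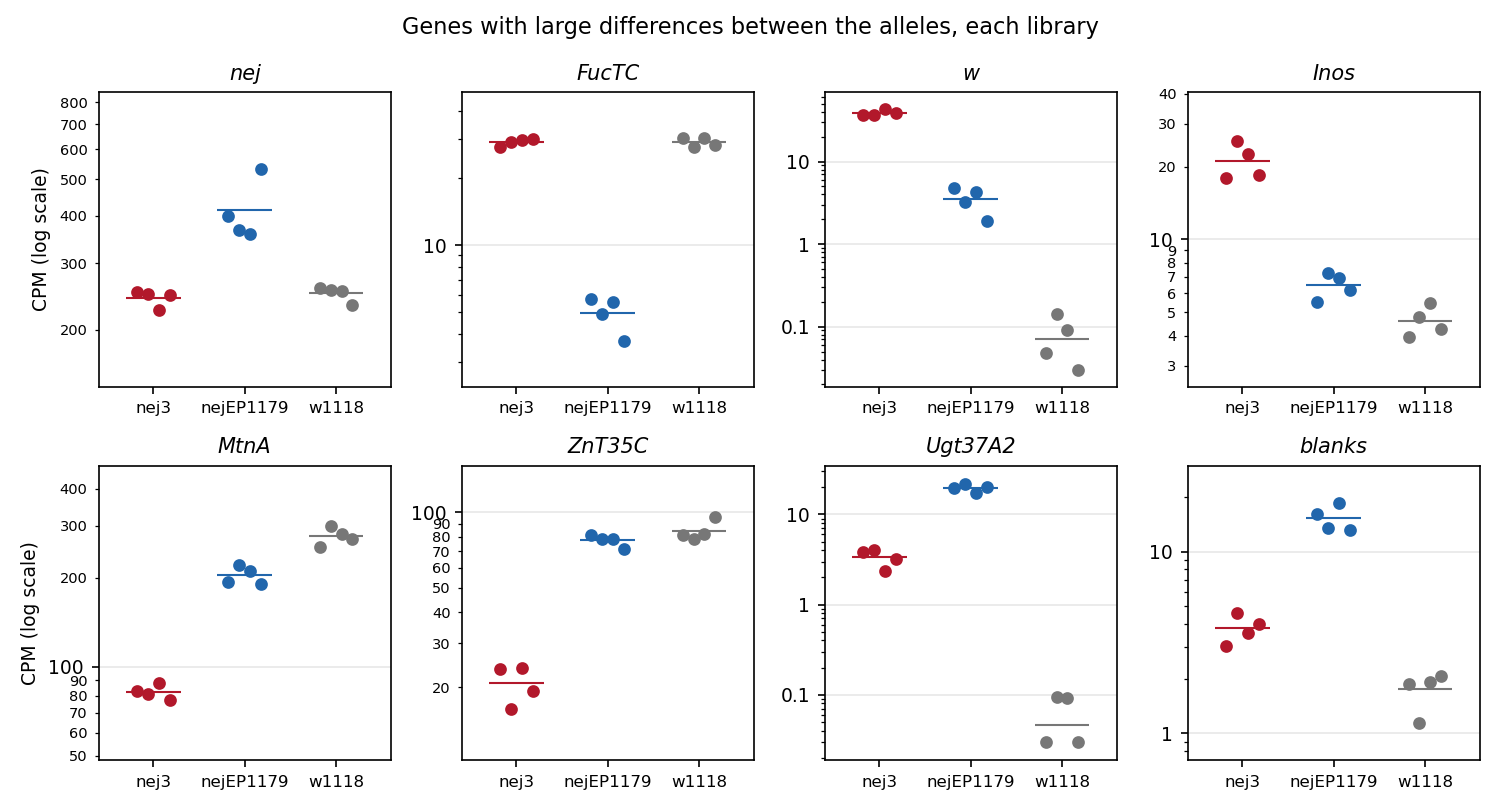
Level of nej, w and 6 other genes that separated the alleles (CPM, log axis) in each library, with nej3 left, nejEP1179 in the middle and w1118 right, horizontal lines at the group means and values of 0 drawn at 0.03 CPM. The 4 nej3 points and the 4 nejEP1179 points do not mix in any panel, for nej at 226 to 251 CPM against 358 to 532 CPM.

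Small heat shock proteins, chaperones that hold unfolded proteins in solution, were the list with the highest median difference among the 42 lists of genes examined. Of 6 tested members, 5 were called, all of them higher in nej3, against 3.02% of all genes tested. That median was 2.04, against 0.002 over all genes. Their summed level was 1630, 1180, 1300 and 891 CPM in nej3 embryos, against 216, 492, 228 and 224 CPM in nejEP1179 embryos. The nej3 libraries were all above the nejEP1179 libraries, among which replicate 2 stood more than 2-fold over the others. In w1118 the sum was 199 to 227 CPM, within 1 CPM of which lay 3 of the 4 nejEP1179 libraries and none of nej3.

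Most of these genes sit together on chromosome arm 3L. Hsp23 (3L:9381882-9382765) had 318, 215, 257 and 163 CPM in nej3 embryos, against 10.5, 62.2, 12.6 and 16.7 CPM in nejEP1179 embryos. It was 9.24-fold higher in nej3 (3.21 ± 0.66, adjusted p = 0.048). Hsp27, its neighbour at 3L:9384063-9385694, followed the same order of libraries, with 292, 202, 246 and 157 CPM in nej3 embryos and 14.3, 64.9, 14.9 and 18.2 CPM in nejEP1179 embryos. Its difference was 2.98 ± 0.60 (adjusted p = 0.044). Both calls were narrow: neither gene passed in the fits that left out any library other than nejEP1179 replicate 2. Leaving out that replicate gave an adjusted p of 0.0021 for Hsp23 and 0.0013 for Hsp27, and a replicate block gave 0.11 and 0.10.

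Hsp26 (3L:9376418-9377427) showed the widest gap of means in the cluster and yet did not pass. It had 699, 487, 485 and 310 CPM in nej3 embryos, against 6.0, 151, 10.8 and 18.5 CPM in nejEP1179 embryos, with 4.88 to 7.22 CPM in w1118. No nej3 library overlapped a nejEP1179 library, but the spread within nejEP1179 was as wide as 6.0 to 151 CPM, and the difference of 3.39 ± 1.10 had an adjusted p of 0.15. Without nejEP1179 replicate 2 the adjusted p was 0.0074, and with DESeq2 it was 0.014.

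Smaller differences in the same group were steadier. Hsp67Bc (3L:9371511-9372497) had 136, 108, 109 and 90.5 CPM in nej3 embryos, against 49.1, 64.5, 47.1 and 47.0 CPM in nejEP1179 embryos (1.09 ± 0.15, adjusted p = 0.0046). The alpha-crystallin gene l(2)efl, on 2R, had 179, 160, 199 and 166 CPM in nej3 and 133, 144, 140 and 120 CPM in nejEP1179 (0.39 ± 0.08, adjusted p = 0.012). These 2 genes passed in each of the 8 fits that left out 1 library. Hsp67Ba was called at low levels (5.96 ± 0.95 CPM in nej3 and 3.38 ± 1.11 CPM in nejEP1179, SD, n = 4 each; 0.81 ± 0.21, adjusted p = 0.046) with overlapping groups, and passed in 2 of those 8 fits. Its w1118 level, 5.01 to 6.30 CPM, was that of nej3, unlike the rest of the group.

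**Figure D3:**
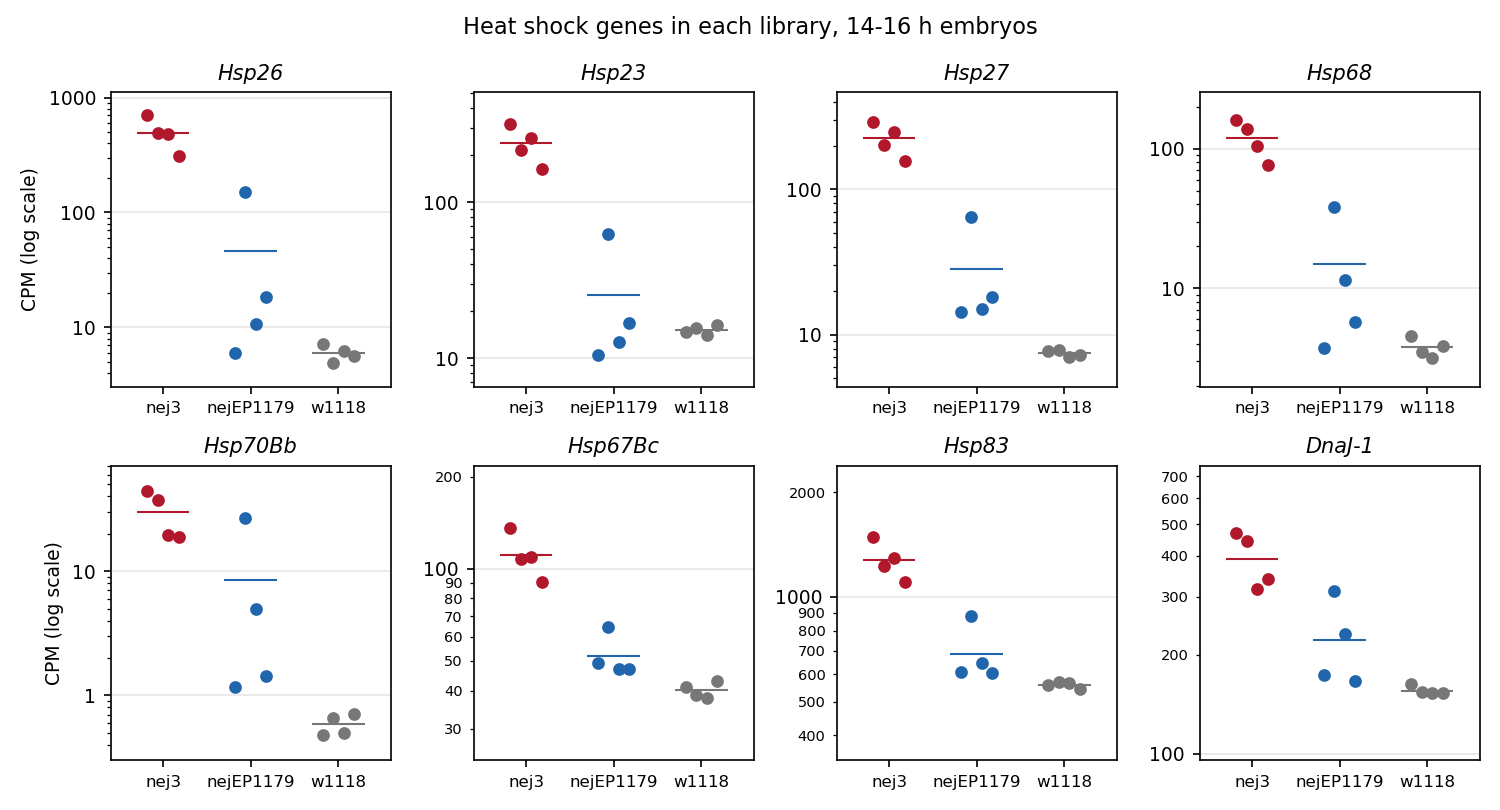
Level of heat shock genes (CPM, log axis) in each library, with nej3 left, nejEP1179 in the middle and w1118 right, horizontal lines at the group means and values of 0 drawn at 0.03 CPM. Hsp23, Hsp26 and Hsp27 lie between 157 and 699 CPM in nej3, while nejEP1179 replicate 2 (62.2, 151 and 64.9 CPM) sits apart above its 3 companions.

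The large chaperones leaned the same way with smaller folds. In the list of Hsp70, Hsp90 and cochaperones, 17 of 18 tested members had a positive difference and the median was 0.77. Of these 18, 3 genes were called higher and 1 lower, against 3.02% and 2.52% of all genes tested. The Hsp70 copies described below are nearly identical in sequence, so those in the list are not separate observations. The summed level was 7960, 7220, 7370 and 6610 CPM in nej3 embryos, against 5490, 6300, 5550 and 5510 CPM in nejEP1179 embryos and 5200 to 5320 CPM in w1118. Hsp83, the fly Hsp90, had the largest positive difference among the called members, with 1490, 1230, 1290 and 1100 CPM in nej3 and 609, 879, 645 and 603 CPM in nejEP1179 (0.91 ± 0.14, adjusted p = 0.0062). The other 2 that rose were stv, a BAG-domain partner of Hsp70, at 166 ± 20.2 CPM in nej3 and 102 ± 9.55 CPM in nejEP1179 (SD, n = 4 each; 0.71 ± 0.09, adjusted p = 0.0014), and Hsc70-3, the Hsp70 of the endoplasmic reticulum. Hsc70-3 averaged 1320 ± 138 CPM in nej3 and 970 ± 47.2 CPM in nejEP1179 (SD, n = 4 each; 0.45 ± 0.08, adjusted p = 0.0054).

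The 1 member that fell was Hsc70-2, a cognate Hsp70 gene. It had 10.8, 7.81, 9.55 and 8.84 CPM in nej3 embryos, against 18.0, 19.2, 16.9 and 19.7 CPM in nejEP1179 embryos (−0.99 ± 0.10, adjusted p = 1.7e-04). Its w1118 level of 1.43 to 2.69 CPM was below both alleles, so both departed from w1118 upwards and nejEP1179 by more.

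The strictly inducible genes were the least settled. Hsp68 had 160, 138, 104 and 76.5 CPM in nej3 embryos, against 3.72, 38.4, 11.4 and 5.76 CPM in nejEP1179 embryos (2.97 ± 0.73, adjusted p = 0.081). It passed with DESeq2 (0.0018), in the fit of all 12 libraries (0.016) and without nejEP1179 replicate 2 (0.015). Of the 6 Hsp70 copies, 0 passed edgeR's test, and their median difference was 1.74. Hsp70Bb had 44.4, 37.2, 19.4 and 18.8 CPM in nej3 embryos, against 1.17, 26.7, 4.98 and 1.42 CPM in nejEP1179 embryos (1.73 ± 0.93, adjusted p = 0.37), so nejEP1179 replicate 2 reached into the range of nej3. These copies are nearly identical in sequence, and how their shared reads were divided between them is uncertain. In w1118 they were nearly silent, with Hsp70Bb at 0.481 to 0.713 CPM.

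Partners of these chaperones gave the same picture at modest size, and those in this paragraph outside the list were chosen after their values were seen. Hsf itself had 160, 175, 153 and 121 CPM in nej3 embryos and 93.7, 139, 102 and 89.6 CPM in nejEP1179 embryos (0.52 ± 0.17, adjusted p = 0.13), and the Hsp40 gene DnaJ-1 had a difference of 0.83 ± 0.24 (adjusted p = 0.11), so neither passed. Higher in nej3 were Hsp110, a nucleotide exchange factor of Hsp70 (0.36 ± 0.06, adjusted p = 0.0038), Stip1, which links Hsp70 to Hsp90 (0.41 ± 0.08, adjusted p = 0.010), and Cdc37, which brings kinases to Hsp90 (0.39 ± 0.07, adjusted p = 0.0049). PEK, the kinase of the endoplasmic reticulum stress response, was also higher (0.50 ± 0.06, 83.0, 78.5, 79.2 and 75.0 CPM against 50.6, 60.0, 54.2 and 58.2 CPM in nejEP1179, adjusted p = 6.3e-04). In the list of ATF4 and other integrated stress genes, 0 of 14 passed edgeR's test, with 6 at an unadjusted p under 0.05 and 4 called by DESeq2, and the median was 0.14. Of these 14 differences, 12 were above 0, as were 5 of the 6 at an unadjusted p under 0.05. The replicate block called 5 higher and 0 lower. The member with the smallest adjusted p, crc, the fly ATF4, went the other way. It had 452 to 486 CPM in nej3 and 516 to 532 CPM in nejEP1179 (−0.18 ± 0.05, adjusted p = 0.059).

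Several other genes separated the alleles with little spread between libraries, and these had some of the smallest adjusted p values of the comparison. FucTC, a fucosyltransferase gene near the base of X (X:23008766-23011303), had 27.5, 29.0, 29.6 and 29.9 CPM in nej3 embryos, against 5.72, 4.89, 5.55 and 3.71 CPM in nejEP1179 embryos (2.53 ± 0.11, adjusted p = 2.8e-07). Its w1118 level was 27.6 to 30.4 CPM, so nejEP1179 alone was low. Inos, the inositol-3-phosphate synthase gene, went the other way relative to w1118. It had 17.9, 25.4, 22.5 and 18.5 CPM in nej3 embryos, against 5.50, 7.26, 6.90 and 6.16 CPM in nejEP1179 embryos and 3.94 to 5.46 CPM in w1118 (1.71 ± 0.13, adjusted p = 1.4e-05).

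The photolyase gene phr, which repairs ultraviolet damage, was low in both mutants and lower in nejEP1179. It had 3.95, 3.16, 5.55 and 7.41 CPM in nej3 embryos, against 1.17, 1.94, 1.76 and 1.89 CPM in nejEP1179 embryos and 21.2 to 23.1 CPM in w1118 (1.57 ± 0.27, adjusted p = 0.0082). Lip1, a lipase gene, had 103, 122, 118 and 121 CPM in nej3 and 39.1, 51.4, 50.3 and 63.1 CPM in nejEP1179 (1.19 ± 0.12, adjusted p = 8.6e-04), with 95.2 to 107 CPM in w1118. The remaining named genes higher in nej3 were Pepck2 (1.39 ± 0.19), a phosphoenolpyruvate carboxykinase gene, Mur2B (1.19 ± 0.23), which encodes a mucin-like protein, and Eo (1.18 ± 0.13), ecdysone oxidase. PIG-K (0.91 ± 0.11), a subunit of the GPI transamidase, and the tetraspanin gene Tsp3A (0.90 ± 0.08) closed the list. Of the 15 genes named as highest in nej3, Mur2B lost its call without nejEP1179 replicate 3 (adjusted p = 0.064), and Hsp23 and Hsp27 in 7 of the 8 fits that left out 1 library.

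**Figure D4:**
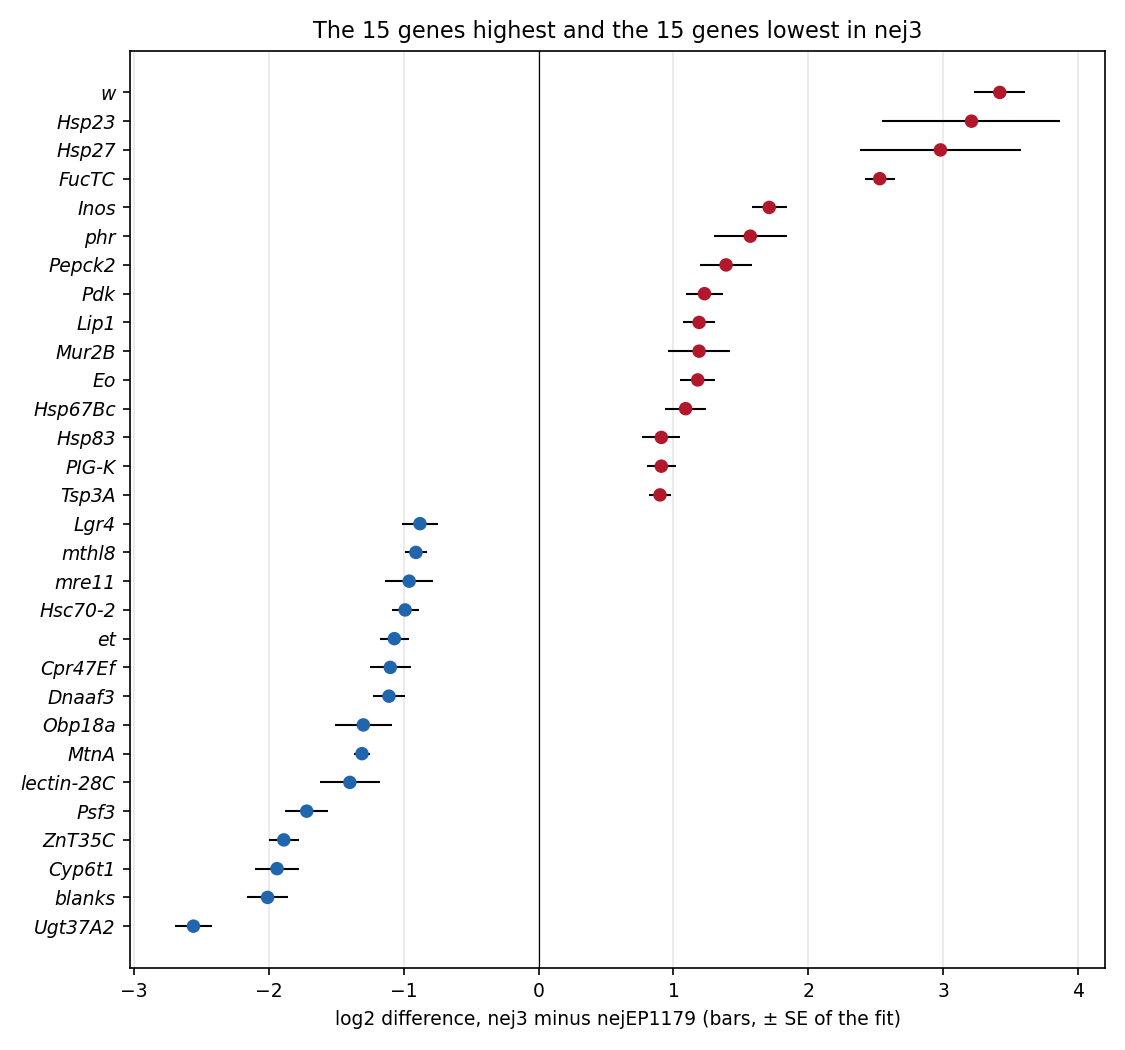
Log2 difference of nej3 minus nejEP1179 (points) with its standard error (bars) for the 15 named genes highest in nej3 and the 15 lowest. The standard errors of Hsp23 (0.66) and Hsp27 (0.60) are the widest, while w (3.42) and FucTC (2.53) are tight.

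Lower in nej3, the largest fall among the named genes was that of Ugt37A2, a UDP-glycosyltransferase gene (3R:12739642-12741417). It had 3.83, 4.03, 2.35 and 3.21 CPM in nej3 embryos, against 19.8, 21.8, 17.4 and 20.3 CPM in nejEP1179 embryos (−2.56 ± 0.14, adjusted p = 1.4e-06), and w1118 had no more than 0.0947 CPM. The gene was therefore raised over w1118 in both alleles. blanks, whose product binds double-stranded RNA in the male germline, had 3.01, 4.59, 3.55 and 4.02 CPM in nej3 and 16.2, 13.5, 18.6 and 13.2 CPM in nejEP1179 (−2.01 ± 0.15, adjusted p = 1.4e-05), with 1.14 to 2.08 CPM in w1118.

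Both genes of metal handling that were called were lower in nej3 and nearer to w1118 in nejEP1179. ZnT35C, a zinc transporter gene (2L:15228728-15247714), had 23.8, 16.4, 24.0 and 19.3 CPM in nej3 embryos, against 81.1, 78.5, 78.0 and 71.4 CPM in nejEP1179 embryos and 78.4 to 96.2 CPM in w1118 (−1.89 ± 0.11, adjusted p = 1.2e-05). MtnA, which encodes the metallothionein that binds copper and zinc (3R:9783407-9784370), had 82.7, 81.0, 88.0 and 77.4 CPM in nej3 and 194, 222, 211 and 191 CPM in nejEP1179, with 254 to 300 CPM in w1118 (−1.31 ± 0.06, adjusted p = 3.8e-07). The other 16 of 18 tested genes of metal binding and transport did not pass, and the median of the list was −0.03. Of all genes tested, 2.52% were called lower.

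The other named falls were of genes under 35 CPM. Cyp6t1, a cytochrome P450 gene, had 2.45, 1.63, 2.35 and 2.41 CPM in nej3 embryos, against 9.44, 6.78, 8.56 and 9.31 CPM in nejEP1179 embryos (−1.94 ± 0.16, adjusted p = 3.3e-05), and w1118 had 7.96 to 9.54 CPM. Psf3, a subunit of the GINS complex of the replication fork, had 3.07, 2.24, 1.90 and 2.47 CPM in nej3 and 8.56, 8.54, 6.54 and 8.29 CPM in nejEP1179 (−1.72 ± 0.16, adjusted p = 6.5e-05), but here w1118 had 2.93 to 4.17 CPM. So the odd group was nej3 for Cyp6t1 and nejEP1179 for Psf3. A like split held for the C-type lectin gene lectin-28C (−1.40 ± 0.22) and for et (−1.07 ± 0.11), a receptor-like inhibitor of JAK/STAT signalling, both near their w1118 level in nej3, and for mthl8 (−0.91 ± 0.08), a Methuselah-like receptor gene near its w1118 level in nejEP1179. Obp18a, an odorant binding protein gene (−1.30 ± 0.21), Dnaaf3, an assembly factor for axonemal dynein (−1.11 ± 0.12), Cpr47Ef, a cuticle protein gene (−1.10 ± 0.15), mre11, of the double-strand break repair complex (−0.96 ± 0.18), and Lgr4, a leucine-rich repeat receptor gene (−0.88 ± 0.13), made up the rest.

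Below that level were a few genes that were close to silent in one allele, chosen here after their values were seen. CG8851 (2L:3519677-3522555) had 3.64, 4.49, 3.30 and 4.94 CPM in nej3 embryos, against 0, 0.0949, 0.156 and 0 CPM in nejEP1179 embryos and 0 in each w1118 library. hdm (X:7918517-7920131), which acts in meiotic recombination, had 4.58, 5.15, 5.80 and 4.42 CPM in nej3 and 0.389, 0.190, 0.208 and 0.158 CPM in nejEP1179, with 0.219 to 0.455 CPM in w1118. Both were expressed above w1118 in nej3 only. The reverse held for CR43105 (2R:15374846-15375702), with 0, 0.102, 0 and 0.115 CPM in nej3 embryos, against 6.06, 4.60, 4.15 and 3.71 CPM in nejEP1179 embryos and 0 to 0.0962 CPM in w1118. All 3 were called (adjusted p = 1.2e-05, 1.4e-06 and 8.8e-06), and fitted folds against so few counts depend on the prior count and are left out.

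Among chromatin genes, the Polycomb group, which keeps developmental genes silent, had 3 of 23 tested members called, all lower in nej3, against 2.52% of all genes tested. Psc had 54.3, 51.2, 61.7 and 63.5 CPM in nej3 embryos, against 87.4, 76.7, 79.7 and 88.9 CPM in nejEP1179 embryos (−0.53 ± 0.08, adjusted p = 0.0019). Its paralogue and neighbour on 2R, Su(z)2, had 88.6, 90.9, 92.2 and 98.5 CPM in nej3 and 128, 116, 117 and 130 CPM in nejEP1179 (−0.41 ± 0.06, adjusted p = 0.0014). For both, the w1118 levels (79.2 to 86.1 and 122 to 136 CPM) were those of nejEP1179. ph-p, also of the PRC1 complex, averaged 96.1 ± 1.47 CPM in nej3 and 116 ± 2.13 CPM in nejEP1179 (SD, n = 4 each; −0.27 ± 0.04, adjusted p = 0.0037), with w1118 in between at 103 to 109 CPM. The list as a whole did not move: its median was −0.03 and 11 of 23 differences were above 0.

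Other chromatin and signalling lists held few calls each, where 5.55% of all genes tested were called. In the list of nej and histone acetylation genes, nej itself was the 1 call of 21 tested. Of 21 trithorax group genes and coactivators, Utx, a demethylase of histone H3 lysine 27, was the 1 call (119 ± 10.1 CPM in nej3 and 94.8 ± 10.3 CPM in nejEP1179, SD, n = 4 each; 0.33 ± 0.08, adjusted p = 0.038), with overlapping groups and a pass in 2 of 8 fits without 1 library. The Hox genes gave 0 calls of 8 with edgeR, 0 at an unadjusted p under 0.05 and 0 with DESeq2, and abd-A, the gene with the smallest adjusted p (0.31), had 196 to 225 CPM in nej3 and 223 to 255 CPM in nejEP1179.

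In the Hedgehog pathway 2 of 18 tested genes were called, both higher in nej3, against 3.02% of all genes tested. ptc, the receptor and a target of the pathway, had 120, 111, 127 and 111 CPM in nej3 embryos, against 83.6, 98.2, 83.0 and 91.2 CPM in nejEP1179 embryos and 88.8 to 95.5 CPM in w1118 (0.40 ± 0.07, adjusted p = 0.0046). The ligand gene hh had 13.6, 13.7, 12.9 and 10.9 CPM in nej3 and 9.50, 11, 8.30 and 9.87 CPM in nejEP1179 (0.40 ± 0.11, adjusted p = 0.050 and just under the threshold), with overlapping groups and a call that was kept in 2 of the 8 fits that left out 1 library. The median of the pathway was −0.05. By edgeR's test the Notch pathway with the E(spl) complex had 0 of 19 called (6 at an unadjusted p under 0.05, 0 with DESeq2), the Wingless pathway 0 of 23 (4 and 0) and the Dpp pathway 0 of 18 (4 and 0), with medians of 0.14, −0.04 and −0.03.

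Glutathione transferases, which couple glutathione to reactive compounds, had 8 of 30 tested members called, all of them higher in nej3 and against 3.02% of all genes. Their summed level was 1120, 1170, 1180 and 1180 CPM in nej3 embryos, against 1100, 1100, 1110 and 1040 CPM in nejEP1179 embryos and 934 to 972 CPM in w1118. GstD1 had 116, 117, 118 and 124 CPM in nej3 and 95.2, 99.0, 99.6 and 96.1 CPM in nejEP1179 (0.28 ± 0.04, adjusted p = 0.0034), though w1118, at 114 to 121 CPM, matched nej3. GstE1 had 44.0, 54.8, 53.3 and 46.9 CPM in nej3 and 38.3, 39.9, 39.7 and 33.7 CPM in nejEP1179 (0.39 ± 0.08, adjusted p = 0.014), and in this case w1118 was far below both at 13 to 14.2 CPM. GstE10 (0.66 ± 0.13), GstE7 (0.50 ± 0.11), GstE3 (0.40 ± 0.09), GstD10 (0.75 ± 0.17), GstE5 (0.60 ± 0.15) and GstE9 (0.69 ± 0.18) completed the set. The 6 GstE genes are paralogues in 1 cluster on 2R and GstE1 overlaps GstE10, so reads may be divided between them and they are not separate observations. Between 3 and 7 of the list were called when 1 library was left out.

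Of 61 cytochrome P450 genes, which oxidise hormones and foreign compounds, 4 were called, all lower in nej3, against 2.52% of all genes tested. Beside Cyp6t1 these were Cyp311a1 (−1.78 ± 0.34, 0.251 to 0.800 CPM in nej3 and 1.33 to 2.76 CPM in nejEP1179, adjusted p = 0.0098), Cyp6a13 (−0.60 ± 0.13, adjusted p = 0.018) and Cyp4e2 (−0.39 ± 0.09, adjusted p = 0.033). The median of the list was −0.05 and 30 of 61 differences were above 0, so the family as a whole had no common direction. Of the 22 genes at an unadjusted p under 0.05, 6 were higher in nej3 and the rest lower. The fit without 1 library called 2 to 6 of them lower and up to 1 higher. DESeq2 and the replicate block each called 1 higher and 7 lower, and a fit with a covariate for the age of the embryos, added after seeing the data, called 6 higher and 4 lower.

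Genes of central carbon and inositol metabolism had 4 of 20 called, each higher in nej3, against 3.02% of all genes tested, and a median of 0.13. Apart from Inos these were Pdk, the kinase that shuts off pyruvate dehydrogenase, with 127, 101, 107 and 88.5 CPM in nej3 embryos and 39.2, 55.0, 46.7 and 39.9 CPM in nejEP1179 embryos (1.23 ± 0.14, adjusted p = 0.0019). Its w1118 level of 35.8 to 42.2 CPM was that of nejEP1179. Tps1, which makes the blood sugar trehalose (0.38 ± 0.06, adjusted p = 0.0046), and the glycolytic gene Pgi (0.29 ± 0.06, adjusted p = 0.012) differed less. All 4 passed in each of the 8 fits that left out 1 library.

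In the fat body and larval serum list 2 of 12 genes were called, both of lipid droplets and both higher in nej3, against 3.02% of all genes. The lipase gene bmm (brummer) had 68.3, 71.5, 62.4 and 65.7 CPM in nej3 embryos, against 39.1, 39.3, 41.5 and 39.1 CPM in nejEP1179 embryos and 38.8 to 42.4 CPM in w1118 (0.76 ± 0.06, adjusted p = 1.4e-05). Lsd-2, a perilipin that covers the droplets, had a difference of 0.24 ± 0.06 (adjusted p = 0.036) and passed in 1 of 8 fits without 1 library. The other 10 tested members did not pass, and the median of the list was 0.01. Jabba, a lipid droplet gene outside the list and chosen after its values were seen, was lower in nej3 (−0.78 ± 0.10, adjusted p = 8.1e-04).

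Markers of embryonic tissues were checked for a shift in the make-up of the embryos. Glia had 3 of 16 called, all lower in nej3, against 2.52% of all genes tested. The glutamine synthetase gene Gs2 had 54.8, 60.0, 62.1 and 57.2 CPM in nej3 embryos, against 76.9, 91.8, 95.4 and 78.7 CPM in nejEP1179 embryos (−0.55 ± 0.08, adjusted p = 0.0014). The astrocyte gene alrm had 63.8 to 74.3 CPM in nej3 and 81.7 to 85.9 CPM in nejEP1179 (−0.31 ± 0.06, adjusted p = 0.0067), and repo, the glial homeobox gene, had 24.8 to 27.4 CPM in nej3 and 30.9 to 34.3 CPM in nejEP1179 (−0.33 ± 0.06, adjusted p = 0.0091). In w1118, Gs2 (59.6 to 66.6 CPM) and alrm (65.5 to 67.1 CPM) were at about the level of nej3, but repo (38.2 to 40.2 CPM) was above both alleles. The summed level of glial markers was 2480 to 2540 CPM in nej3, 2600 to 2790 CPM in nejEP1179 and 2370 to 2510 CPM in w1118. The other 13 tested members did not pass. The median of the list was −0.06 and 6 of 16 differences were above 0.

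Neuronal markers leaned lower in nej3, with 20 of 24 differences at or below 0 and a median of −0.18. The 1 call was unc-13, a synaptic vesicle priming gene (318 to 413 CPM in nej3 and 436 to 542 CPM in nejEP1179, −0.35 ± 0.09, adjusted p = 0.039), and 12 genes had an unadjusted p under 0.05, 11 of them lower. Of other tissues, salivary gland markers gave PH4alphaSG2, a prolyl hydroxylase gene (31.7 to 34.1 CPM in nej3, 21.7 to 29.0 CPM in nejEP1179 and 2.56 to 3.19 CPM in w1118, 0.32 ± 0.08, adjusted p = 0.049), as 1 of 9, and Malpighian tubule markers gave Lkr, the leucokinin receptor gene (−0.59 ± 0.14, adjusted p = 0.032), as 1 of 14. Of the 8 fits that left out 1 library, unc-13, PH4alphaSG2 and Lkr each passed in 2. PH4alphaSG2 also fell short with other size factors (adjusted p = 0.053), the replicate block (0.065) and the age covariate (0.069). Digestive enzymes gave 1 of 17, the trypsin gene alphaTry (2.60 ± 0.45, adjusted p = 0.0061), at 0.753 to 2.04 CPM in nej3, 0.0556 to 0.415 CPM in nejEP1179 and 4.92 to 6.58 CPM in w1118. Over all genes tested 5.55% were called. By edgeR's test 0 genes were called among 29 muscle, 18 neuroblast, 17 tracheal, 13 hemocyte and 10 midgut and hindgut markers, with 6, 8, 5, 2 and 2 at an unadjusted p under 0.05, and DESeq2 called 1, 1, 0, 0 and 1. Medians of these 5 lists lay between 0 and 0.04. So the embryonic lists were all detected in both alleles.

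Adult ovary transcripts were close to absent, which bears on the label of embryo. Of 16 eggshell and yolk genes in the table only 2 could be tested, and 0 were called by edgeR (2 at an unadjusted p under 0.05, 1 with DESeq2). Their summed level was 4.23 to 7.70 CPM in nej3, 3.17 to 3.95 CPM in nejEP1179 and 3.51 to 8.28 CPM in w1118. Among germline and maternal transcripts 4 of 12 were called, against 5.55% of all genes tested. CycB3 was higher (0.54 ± 0.12, adjusted p = 0.018). Lower were blanks, aub (−0.47 ± 0.12, adjusted p = 0.044) and tud (−0.21 ± 0.05, adjusted p = 0.047), where aub and tud serve the piRNA pathway of germ cells. Neither aub nor tud passed in any fit that left out 1 library.

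Cuticle protein genes gave wide swings with few calls. Of 68 tested, 58 were below 0 and 18 below −1, and the median was −0.31. Yet only Cpr11A (1.16 ± 0.22, adjusted p = 0.0095) and Cpr47Ef (−1.10 ± 0.15, adjusted p = 0.0013) passed edgeR's test. DESeq2 called 1 higher and 5 lower, and the fit with the age covariate 1 higher and 4 lower. TwdlN, a Tweedle cuticle protein gene, had 0.690, 3.93, 1.95 and 2.93 CPM in nej3 embryos, against 3.67, 27.7, 33.6 and 5.84 CPM in nejEP1179 embryos and 20.1, 9.38, 15.4 and 1.10 CPM in w1118 (−2.89 ± 0.91, adjusted p = 0.14). Lcp65Ag1, a larval cuticle protein gene, had 0.251, 3.47, 0.650 and 1.72 CPM in nej3 and 1.78, 18.8, 21.3 and 3.55 CPM in nejEP1179 (−2.89 ± 1.05, adjusted p = 0.19). In both genes nejEP1179 replicates 2 and 3 were high and nej3 replicates 1 and 3 were low, and w1118 replicate 4 was as low as those nej3 libraries. The fold between libraries of 1 genotype was thus as wide as that between the alleles.

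These genes rise late in the embryo, so the age of the collections was examined. In w1118 embryos, 625 genes were at least 4-fold higher at 16-18 h than at 14-16 h, the 2 ages being counted in separate tables. Of the 68 cuticle genes, 46 were among them, and of 33 uncalled genes more than 1.5 lower in nej3 on the log2 scale, 31 were. Over these 625 genes the median difference between the alleles was −0.16, with 18 called higher and 17 lower, which is 5.60% against 5.55% of all genes. The median level of these genes relative to the w1118 mean was −0.21, 0.38, −0.09 and 0.21 in nej3 libraries and −0.05, 0.35, 0.51 and 0.22 in nejEP1179 libraries, so the alleles overlapped. In w1118 it was 0.21, 0.07, 0.09 and −0.32. The order of the nej3 libraries on the first principal component was the order of this level. In nejEP1179, replicate 1 was lowest and replicate 3 highest on both. The first principal component thus separated the alleles but also went with this level within them, and what it reflects was not tested. For 241 genes at least 4-fold lower at the later age the median difference was 0.05, with 8 called higher and 2 lower. With this level added to the fit as a covariate, 639 genes were called.

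The remaining lists held few calls each. Over all genes tested 5.55% were called, 3.02% higher and 2.52% lower in nej3. The Osiris family, secreted cuticle-associated proteins, had 1 of 18 called, Osi2 (0.38 ± 0.08, adjusted p = 0.018). Ecdysone genes had 2 of 16, Hr39, a nuclear receptor gene (−0.25 ± 0.06, adjusted p = 0.043), and Eip93F (−0.84 ± 0.22, adjusted p = 0.044), a transcription factor gene of metamorphosis, both lower in nej3. Of the 8 fits that left out 1 library, Hr39 passed in 2 and Eip93F in 1, and with the replicate block neither passed and 1 other member was called higher. In the apoptosis list 2 of 21 were lower, the caspase gene Dredd (−0.36 ± 0.09, adjusted p = 0.045) and p53 (−0.49 ± 0.11, adjusted p = 0.020). Dredd passed in 2 of the 8 fits that left out 1 library and p53 in 5, and no such fit called both. DNA repair had phr higher and mre11 lower of 30, replication had Psf3 lower of 27, and the cell cycle had CycB3 higher of 22. Both repair genes were far below their w1118 levels (21.2 to 23.1 CPM for phr and 26.3 to 27.7 CPM for mre11) in the 2 alleles.

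Pigment genes gave w and cn, of ommochrome synthesis (0.76 ± 0.15, adjusted p = 0.011), as higher and v, which acts upstream of cn, as lower of 19. The shares of all genes tested were 3.02% higher and 2.52% lower. For v the levels were 16.2, 24.9, 20.2 and 21.5 CPM in nej3 embryos, against 25.8, 31.6, 36.1 and 34.3 CPM in nejEP1179 embryos (−0.62 ± 0.14, adjusted p = 0.030). It passed in 3 of the 8 fits that left out 1 library. Cytosolic ribosomal protein genes had RpS5b, a paralogue of RpS5a with known use in the germline, as 1 call of 83, with 32.9, 39.8, 43.7 and 36.9 CPM in nej3 and 65.1, 53.7, 56.2 and 51.4 CPM in nejEP1179, against 169 to 181 CPM in w1118 (−0.56 ± 0.09, adjusted p = 0.0058). By edgeR's test 0 were called among 71 nuclear respiratory chain genes (3 at an unadjusted p under 0.05, 0 with DESeq2), 22 immune genes (6 and 2), 16 cleavage and polyadenylation genes (1 and 0) and 13 genes the study used as isoform examples (0 and 0). The medians of these 4 lists were 0.02, −0.02, 0.05 and −0.04. In the last 2 lists the genes closest to passing were su(f), a cleavage factor gene (−0.11 ± 0.05, adjusted p = 0.22), and orb (−0.24 ± 0.11, adjusted p = 0.25). These values are of whole-gene counts and say nothing of the 3′ ends in use.

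Genes on the chromosome that carries nej differed more often than those on the autosomes. Of 1629 tested genes on X, 173 were called (10.6%), 92 higher and 81 lower in nej3, against 380 of 8207 on the large autosome arms (4.63%). The autosome arms lay close together, with 5.71% on 2L, 4.51% on 2R, 4.40% on 3L and 4.14% on 3R. X held 30.7% of all called genes. Along X the share in windows of 2 Mb was 5.85% to 21.1%, and the highest was not at nej, whose 2 adjoining windows had 9.30% and 9.03%. The median difference over X genes was −0.02, close to that of all genes.

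**Figure D5:**
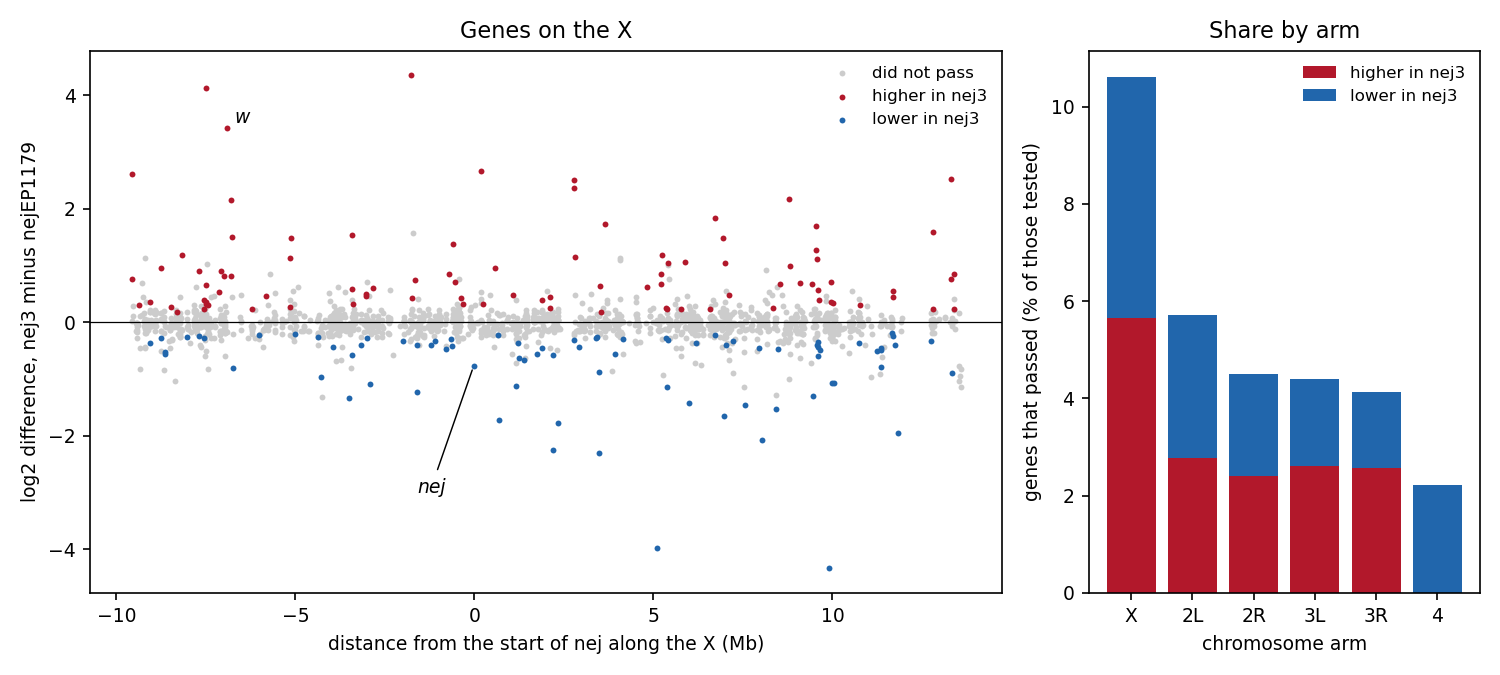
Left, the log2 difference of nej3 minus nejEP1179 of the 1629 tested X genes against the distance from the start site of nej (Mb), with called genes in colour. Right, percent of tested genes called on each chromosome arm, higher and lower in nej3 stacked. X stands at 10.6%, above the 4 large autosome arms (4.14% to 5.71%), and called genes are spread along X rather than gathered at nej.

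The balance of the sexes was looked at through the dosage genes. The male-specific RNA lncRNA:roX1 had 628, 628, 668 and 621 CPM in nej3 embryos, against 600, 724, 584 and 677 CPM in nejEP1179 embryos (−0.02 ± 0.07, adjusted p = 0.91, a sign that turns to 0.04 without nejEP1179 replicate 2). lncRNA:roX2 had 15.7 to 16.6 CPM in nej3 and 16.0 to 19.9 CPM in nejEP1179 (−0.17 ± 0.08, adjusted p = 0.23). Sxl, the switch gene for female development, had 355 to 448 CPM in nej3 and 331 to 355 CPM in nejEP1179 (0.22 ± 0.07, adjusted p = 0.087), and msl-2 had 36.3 to 38.2 CPM in nej3 and 34.6 to 37.7 CPM in nejEP1179 (0.05 ± 0.05, adjusted p = 0.62). In this list of 15, tra, the next switch after Sxl, was the 1 call (0.70 ± 0.13, adjusted p = 0.010). Sxl, msl-2 and tra are transcribed in both sexes, so their whole-gene counts cannot give the share of males. The 1 tested Y gene, FDY, had 3.64, 3.78, 3.80 and 2.87 CPM in nej3 and 5.44, 7.26, 5.97 and 6.39 CPM in nejEP1179 (−0.83 ± 0.14, adjusted p = 0.0045), with at most 0.0962 CPM in w1118. The male-specific RNAs were present in w1118, with lncRNA:roX1 at 459 to 676 CPM and lncRNA:roX2 at 15.5 to 22.9 CPM.

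Around nej itself there was little. Of the 10 tested genes on either side, 1 was called, CG32695, at 1.69, 2.30, 1.95 and 1.72 CPM in nej3 embryos, against 0.278, 0.285, 0.311 and 0.316 CPM in nejEP1179 embryos (2.67 ± 0.24, adjusted p = 5.9e-05), and it lies 185.3 kb from the start site of nej. Of the 20 neighbours, 13 were within 0.2 of 0 on the log2 scale. The closest, CG3106 and btd, a zinc finger gene of head segmentation, had differences of −0.10 ± 0.09 and 0.31 ± 0.14 (adjusted p = 0.59 and 0.23).

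Elsewhere 131 called genes (23.3%) lay next to another called gene. The same share was not counted over all genes tested, so 23.3% is not read as clustering. In 6 runs, 3 or more adjacent tested genes were called in 1 direction. On 3L the run Hsp67Ba, asRNA:CR43481, Hsp23 and Hsp27 was higher in nej3, and the antisense RNA overlaps Hsp67Ba (3L:9378160-9381119), so without the strand its reads cannot be told apart from those of the gene. A second run on 3L was CG14965, Hsp83 and CG14966, and the end of Hsp83 overlaps CG14966, which at 3.47 to 5.50 CPM in nej3 and 2.23 to 3.51 CPM in nejEP1179 is a minor neighbour of a gene above 600 CPM. Others that were higher were w, CG14418 and CG14419 on X and mRF1, Ski6 and CG16812 on 2L. Most runs rested on narrow calls. Of the 8 fits that left out 1 library, Ski6 passed in 5, CG16812 in 3, CG14966 and Hsp67Ba in 2, and Hsp23 and Hsp27 in 1. The genes w, CG14418 and CG14419 passed in all 8.

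Lower runs were Hsc70-2, CG31157 and CG7966 on 3R and Idgf2, Idgf3 and dac on 2L. Of the 8 fits that left out 1 library, CG31157 passed in 4, and Idgf3 and dac in 2 each. Idgf2 and Idgf3, growth factors of the chitinase family, had differences of −0.26 ± 0.05 (adjusted p = 0.0091) and −0.42 ± 0.10 (adjusted p = 0.038), and Idgf1 beside them had −0.44 ± 0.19 (adjusted p = 0.22). Idgf4, on X, was higher in nej3 (0.32 ± 0.06, adjusted p = 0.0084). The family was chosen after its values were seen.

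The w1118 mean lay between the means of the alleles for 48.8% of the 563 called genes. It was 24.8% for all 10150 genes tested, but called genes were chosen for a gap between these means, so the shares are not comparable. It lay nearer to the nejEP1179 mean for 56.0% of called genes, against 46.7% of all, and nearer to nej3 for 44.0%, against 53.3% of all. For 307 genes higher in nej3, 62.2% had w1118 nearer to nejEP1179, as with Hsp23, Pdk and bmm, and for 256 genes lower in nej3 the figure was 48.4%. Genes with nearly w1118 levels in nej3 and a departure in nejEP1179, as with FucTC and nej, therefore stood beside genes with the reverse order.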

How the data were processed

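The authors deposited raw counts of reads per gene, made with featureCounts on dm6 per the submitters' processing notes, which give no versions and do not state whether strand was used. The deposited DESeq2 tables (fold changes, p-values, mean values) were not used, nor were 13 columns of per-sample values of mutants at 16-18 h. Gene names and positions came from the Ensembl release 115 annotation, which matched 17252 of 17558 identifiers (98.3%).

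Counts of the 8 libraries were tested with edgeR 4.0.16 (R 4.3.3, limma 3.58.1; TMM scaling, filterByExpr, quasi-likelihood F test, 1 factor for the allele, Benjamini-Hochberg adjustment over all 10150 genes, threshold 0.05). Standard errors were taken as the log2 difference over the square root of F. CPM were scaled by TMM over 12 libraries. Alternatives were other size factors, no filter, DESeq2 1.42.0, all 12 libraries, a replicate block, each library left out, and, added after seeing the data, a covariate for age. Figures used Python 3.11.15 and matplotlib 3.10.9.

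The members and the 42 gene lists were chosen with earlier results of these data known. Named are nej, w, the 15 genes highest and 15 lowest in nej3 among called genes of at least 5 CPM without overlap of libraries (15 and 13 numbered or RNA genes, transposons, histones and genes without symbol were passed over), and up to 4 called members of each list by adjusted p, otherwise the member with the smallest. Other genes were chosen after their values were seen. The study calls the 4 libraries of a genotype biological replicates. Whether the pools of 20 to 30 embryos came from separate collections is not stated in the sources used here, so p-values measure the spread between these samples.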

Additional observations from a re-analysis of the deposited data

Results flagged for a closer look

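Among 258 groups of 4 libraries examined, 25 had 1 library apart from the other 3 by Dixon's criterion, where chance flags about 1 in 20. The flags met the heat shock genes most often. In nejEP1179 replicate 2, Hsp23 stood at 62.2 CPM (next library 16.7), Hsp27 at 64.9 CPM (18.2), Hsp67Bc at 64.5 CPM (49.1) and Hsp83 at 879 CPM (645). The sums of its small heat shock genes, 492 CPM, and of its large chaperones, 6300 CPM, were also apart. In nej3 replicate 4, Hsp67Ba was low at 4.53 CPM.

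Other genes were flagged in single libraries. In nej3 replicate 2, Cyp6a13 (8.01 CPM), Notum (17.7 CPM) and crc (486 CPM) were high, and Cyp6t1 (1.63 CPM), et (8.62 CPM) and the sum of eggshell and yolk genes (4.23 CPM) were low. In nej3 replicate 3, PH4alphaSG2 (34.1 CPM) and the sum of ribosomal protein genes (97100 CPM) were high, and nej was low (226 CPM, next library 247). In nej3 replicate 4, su(f) was low (44.9 CPM). The Wingless sum (3390 CPM) and the sum of dosage and sex genes (1370 CPM) were high in nej3 replicate 1, and its glutathione transferase sum was low (1120 CPM).

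In nejEP1179 replicate 3, Psf3 was low (6.54 CPM) and bmm high (41.5 CPM). In nejEP1179 replicate 1, lectin-28C was low (3.44 CPM), and in replicate 4 the glial sum was high (2790 CPM) and the glutathione transferase sum low (1040 CPM).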

How the results depend on the processing

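All 563 called genes kept their sign in every alternative in which they were tested, and 262 were called in all of them. Other size factors called 550 genes (549 of the 563), no filter 591 (525) and DESeq2 719 (549), but the fit of all 12 libraries called 967 (520 higher and 447 lower in nej3, and 562 of the 563). Leaving out 1 library gave 310 to 560 genes (172 to 291 higher, 138 to 269 lower), with 306 to 453 of the 563. The count moved by over 1.5 times without nej3 replicate 1 (349), nej3 replicate 3 (352), nejEP1179 replicate 3 (310) or nejEP1179 replicate 4 (372). With the age covariate, chosen after seeing the data, it was 639, with 490 of the 563. Replicate numbers did not pair the samples (correlations of same-numbered deviations 0.425, 0.194, −0.267 and 0.038), and the replicate block called 571 genes, 311 of them higher, with 470 of the 563. For 144 named genes, 1769 values were on the same side of the threshold as reported, 201 fell short of it, 45 newly passed it, and lncRNA:roX1 (−0.02) ran between −0.06 without nejEP1179 replicate 3 and 0.04 without nejEP1179 replicate 2. Genes under about 1 CPM rest on few counts.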

Other observations

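Other families were looked at after their values were seen. Of 29 tested UDP-glycosyltransferase genes, which attach sugars to small lipophilic compounds, 3 were higher in nej3 and 1 lower, with a median difference of 0.04. The shares of all genes tested were 3.02% and 2.52%. Ugt35B1 had 1.38, 3.21, 2.50 and 2.24 CPM in nej3 embryos, against 0.667, 0.854, 1.14 and 0.947 CPM in nejEP1179 embryos (1.38 ± 0.27, adjusted p = 0.013), and Ugt303B3 and Ugt37D1 differed by 0.58 ± 0.11 and 0.41 ± 0.08, while Ugt37A2 was the member that fell. Carbonic anhydrase genes, which interconvert carbon dioxide and bicarbonate, had 2 of 7 called, both higher, against 3.02% of all genes tested. The median of that family was 0.03. CAH2 had 145, 159, 140 and 132 CPM in nej3 embryos, against 80.8, 105, 92.1 and 107 CPM in nejEP1179 embryos and 78.3 to 99.1 CPM in w1118 (0.59 ± 0.09, adjusted p = 0.0027), and CAHbeta differed by 0.59 ± 0.10 (adjusted p = 0.0053).

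Further genes of stress and transport fell on both sides. The catalase gene Cat, which breaks down hydrogen peroxide, was lower in nej3 (182, 188, 187 and 172 CPM against 208, 214, 220 and 231 CPM in nejEP1179, −0.26 ± 0.05, adjusted p = 0.015). Mgstl, a membrane-bound glutathione transferase gene outside the list above, was lower as well (37.5, 56.1, 34.1 and 45.1 CPM against 80.6, 71.0, 78.4 and 70.0 CPM in nejEP1179, −0.79 ± 0.15, adjusted p = 0.018), unlike the 8 called members of that list. Jabba, which holds histones on lipid droplets, had 6.02, 6.43, 5.90 and 7.06 CPM in nej3 and 10.7, 10.5, 10.4 and 12.5 CPM in nejEP1179 (−0.78 ± 0.10, adjusted p = 8.1e-04). The transporter genes MRP (0.26 ± 0.05, adjusted p = 0.0095) and Mct1 (0.33 ± 0.06, adjusted p = 0.0063) were higher in nej3, and both were lower in w1118 than in either allele, at 136 to 150 CPM and 86.2 to 93.7 CPM. The clock gene per had 11.3, 10.9, 10.8 and 8.15 CPM in nej3 embryos, against 6.28, 6.40, 5.91 and 4.74 CPM in nejEP1179 embryos (0.81 ± 0.13, adjusted p = 0.0039). Of 310 antisense and long noncoding RNAs tested, 9 were higher and 9 lower, against 3.02% and 2.52% of all genes tested.

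On X, Ag5r2 was near silent in nej3 (0, 0.102, 0 and 0.230 CPM) and low in nejEP1179 (0.833, 1.42, 1.66 and 1.74 CPM), with 4.12 to 4.99 CPM in w1118 (adjusted p = 0.0016). CG15927 had 18.4, 12.7, 20.2 and 18.9 CPM in nej3 embryos, against 5.28, 2.70, 2.75 and 1.42 CPM in nejEP1179 embryos and 18.5 to 21.2 CPM in w1118 (2.50 ± 0.32, adjusted p = 0.0046). CG8173 had 3.20, 2.09, 2.50 and 1.89 CPM in nej3 and 10.2, 9.96, 10.7 and 9.87 CPM in nejEP1179, with 1.86 to 3.66 CPM in w1118 (−2.07 ± 0.15, adjusted p = 1.2e-05).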
